A study of Mus musculus with 37 samples.

Results

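The 10 genes below carry or tune the Wnt signal, and were followed in the mouse mammary gland through pregnancy, in animals with and without the phosphatase PTP1B. They are the ligands Wnt2, Wnt4, Wnt5a, Wnt5b, Wnt6 and Wnt7b, the R-spondin Rspo1, its receptors Lgr4 and Lgr5, and the secreted antagonist Sfrp4. The 10 were named by symbol, and each was read from a probe set annotated to that symbol alone, out of 19937 genes with such a probe set. Wnt4 had 2 such probe sets, and the brighter one was used. The 2 Wnt4 probe sets correlated at r = 0.90 over the arrays. All 10 passed the filter on dim genes, as did 16865 genes in all.

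Glands were taken at 5 stages from female FVB mice of 2 genotypes, PTP1B KO and PTP1B WT. The KO allele had been backcrossed to FVB for at least 7 generations, no treatment was given, and females were mated at 12 weeks of age. P0 is the nulliparous gland in oestrus, taken after an overnight mating that left a plug, and P3, P7, P10 and P15 are days of pregnancy. The KO groups held 4, 3, 5, 3 and 4 arrays in that order of stages, against 4, 3, 4, 3 and 4 in the WT groups, 19 KO and 18 WT arrays of whole-gland RNA. The knockout is described in the sources without restriction to a cell type.

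Wnt ligands are secreted glycoproteins that bind Frizzled receptors and either stabilise beta-catenin, which then switches on genes such as Axin2, or act through pathways that do not use beta-catenin. R-spondins amplify the signal: bound to an LGR receptor, they remove the ubiquitin ligases Rnf43 and Znrf3, which would otherwise clear Frizzled from the cell surface, while secreted Frizzled-related proteins such as Sfrp4 bind Wnts outside the cell. In the mouse mammary gland, Wnt4 is known as a signal that hormone-sensing luminal cells send to their neighbours in response to progesterone, and Rspo1 is made by luminal cells. PTP1B is a tyrosine phosphatase that acts on the insulin receptor and on the kinase JAK2, among others.

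The targeted gene, Ptpn1, checked the labels: it read 5.36 to 6.49 on the log2 scale in 18 of the 19 KO arrays, against 7.90 to 9.06 in the 18 WT arrays. The array labelled KO P15 replicate 3 stood at 8.68, inside the WT range, and values with and without it are given where a result rests on it. Its Wnt2 level of 6.04 lay among those of the other arrays labelled KO P15, and its Sfrp4 level of 5.81 was the highest of the 4. Skeletal muscle markers were 3.18 to 5.92 above the median of all arrays in WT P0 replicate 4, KO P3 replicate 1 and KO P7 replicate 3, and B and T lymphocyte markers were 1.62 to 4.44 above it in WT P7 replicate 1 and in KO P10 replicates 2 and 3. Those 7 arrays are called the arrays in doubt below, and without them a single KO P10 array is left. The epithelial markers Epcam, Krt8 and Krt18 were at 9.22 or above on all 37 arrays. They belong to a list of 13 epithelial genes, and the others had lowest array values from 6.27 (Elf3) to 10.05 (Krt19). The mean of the 13, each centred on all arrays, ran from -0.82 in a WT P0 array to 0.50 in a WT P15 array. Nothing in the sources says that arrays of a group came from separate animals, so p-values measure only the spread between these arrays.

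At P15 against P0, Rspo1 and Lgr4 had the largest rises among the 10 genes in each genotype, and Sfrp4, Wnt2 and Wnt5a the largest falls. At P15 against P0, 9 of the 10 genes passed the test in KO glands, where 41.3% of all genes tested did, and 8 passed in WT glands, where 48.8% did (limma, adjusted p below 0.05). In KO glands 3 of them were higher (19.5% of all genes) and 6 lower (21.8%), and in WT glands 3 were higher (21.6%) and 5 lower (27.3%). Rspo1, Lgr4 and Wnt5b were the 3 that rose in each genotype. The median log2 change of the 10 was -0.46 in KO glands, beside 0.01 over all genes tested, and -0.37 in WT glands, beside -0.06. The 10 were chosen with earlier results of these data known. These counts and medians therefore cannot show whether Wnt genes change more often than other genes. At P10 it was 7 of 10 in KO glands (30.7% of all genes) and 5 in WT glands (21.4%), and at P7 5 in KO glands (16.2%) and 5 in WT glands (29.3%). At P3, 1 gene passed in KO glands (18.8% of all genes) and 2 passed in WT glands (18.1%). Asked whether a gene changed at all over the 5 stages, the F test called all 10 in KO glands (64.3% of all genes) and 7 in WT glands (66%), where Lgr5, Sfrp4 and Wnt6 had adjusted p of 0.0666, 0.113 and 0.392. The KO call of Wnt6 was lost with the pan-epithelial covariate, with the lymphocyte and muscle covariates and without the arrays in doubt. In WT glands Lgr5 was called with array weights and with the replicate block, Sfrp4 with array weights and Wnt6 with quantile normalisation. At P10 in KO glands 1 of the 10 genes, Wnt5a, was called without the arrays in doubt, which leaves 1 KO P10 array, and 6 to 7 were called when any single array was left out. The P10 calls in KO glands that ended without the arrays in doubt were those of Lgr5, Rspo1, Wnt2, Wnt4, Wnt6 and Wnt7b. Since whole-gland RNA was measured, fewer cells of a type and less RNA per cell cannot be told apart in any of these changes.

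**Figure D1:**
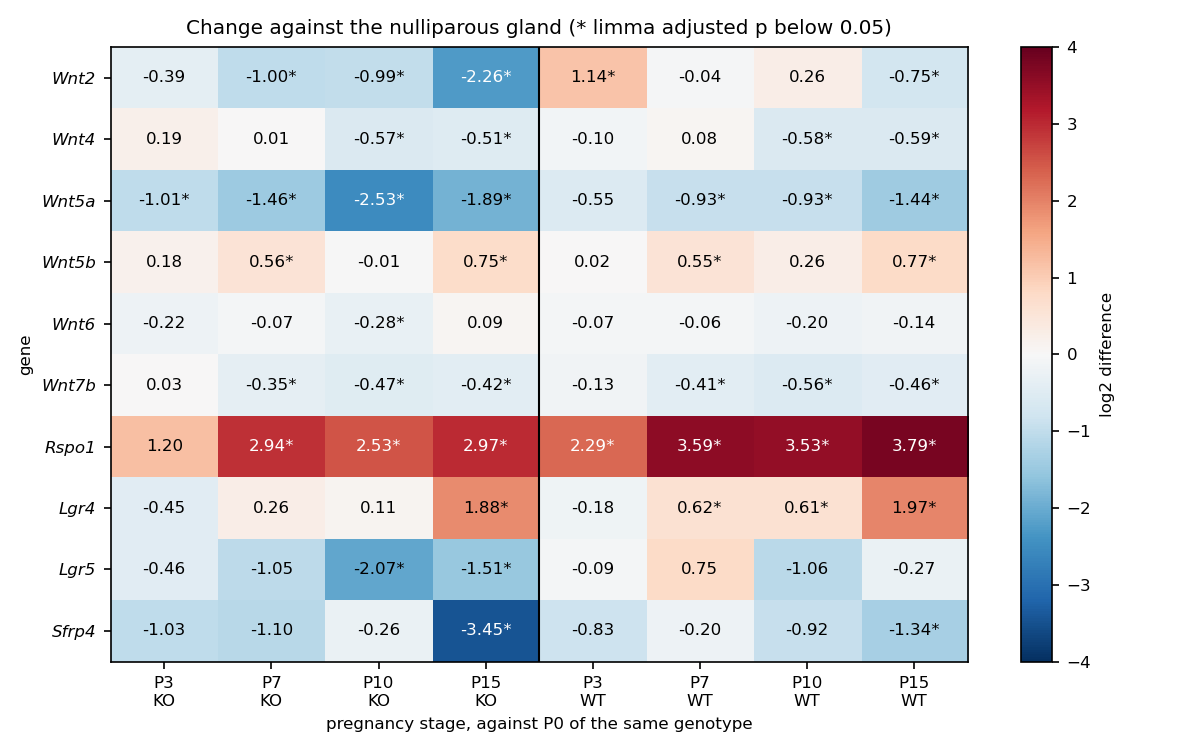
Log2 difference of each gene (vertical axis) between a pregnancy stage and P0 of the same genotype, with KO stages left and WT stages right; colour runs from blue (lower than P0) to red (higher), and an asterisk marks a limma adjusted p below 0.05. Rspo1 is red in every column, up to 3.79 at P15 in WT glands, and Sfrp4 at P15 in KO glands is the deepest blue at -3.45.

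The promoters of Rspo1, Lgr4 and Wnt2 are shown as the 250 bases before the RefSeq gene start (build GRCm38.p6), to let the start regions of the amplifier, its receptor and the ligand with the clearest genotype difference be compared. RefSeq windows were matched for 6 of the 10 genes, 8 windows in all; Lgr5, Sfrp4, Wnt5a and Wnt7b had none. Rspo1 starts on chr4:124986180-124986429 (plus strand), Lgr4 on chr2:109917397-109917646 (plus strand) and Wnt2 on chr6:18030446-18030695 (minus strand), each given here 5′ to 3′ with CpG dinucleotides in capitals.
Rspo1: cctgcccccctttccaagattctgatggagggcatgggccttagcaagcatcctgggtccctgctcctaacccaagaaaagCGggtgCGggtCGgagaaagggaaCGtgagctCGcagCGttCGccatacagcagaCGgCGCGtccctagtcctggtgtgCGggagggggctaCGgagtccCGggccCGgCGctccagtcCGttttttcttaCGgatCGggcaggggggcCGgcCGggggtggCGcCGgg
Lgr4: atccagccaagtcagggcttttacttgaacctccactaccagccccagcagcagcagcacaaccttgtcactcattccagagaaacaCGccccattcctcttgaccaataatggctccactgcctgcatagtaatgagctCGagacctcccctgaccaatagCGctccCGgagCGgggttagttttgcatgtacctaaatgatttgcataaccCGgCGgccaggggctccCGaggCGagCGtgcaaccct
Wnt2: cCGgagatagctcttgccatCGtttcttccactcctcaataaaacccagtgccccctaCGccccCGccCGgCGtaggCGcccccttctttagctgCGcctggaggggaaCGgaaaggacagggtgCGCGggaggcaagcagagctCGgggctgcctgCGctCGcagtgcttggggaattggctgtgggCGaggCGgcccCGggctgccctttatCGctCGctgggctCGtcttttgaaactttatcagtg
These windows hold 22, 10 and 20 CpG in the order printed, with a GC content of 66.8%, 55.6% and 63.6%, beside a median of 6 CpG and 52.4% GC over 32851 promoter windows of the same length. The searched motifs were TTCNNNGAA (STAT5 element), AGAACA (progesterone receptor half-site) and CTTTGA (TCF/LEF core), on both strands, and none of the 3 windows holds one. Among the members with a window, Wnt5b alone holds them, and it alone has several windows. Its window at chr6:119467212-119467461 (minus strand), one of 3 listed for the gene, has a STAT5 element at -159, in capitals here. It also has a progesterone receptor half-site at -234, in capitals too, with both positions counted from the start that this window precedes.
Wnt5b: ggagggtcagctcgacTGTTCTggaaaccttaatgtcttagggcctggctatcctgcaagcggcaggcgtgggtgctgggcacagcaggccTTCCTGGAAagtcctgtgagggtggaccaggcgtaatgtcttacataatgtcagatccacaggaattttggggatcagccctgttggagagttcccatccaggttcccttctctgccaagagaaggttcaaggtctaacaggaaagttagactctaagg
A STAT5 element is in 7.02% of all promoter windows and the half-site in 16.1%, and a TCF/LEF core, which another Wnt5b window holds, in 13.8%. The remaining Wnt5b window, at chr6:119544348-119544597 (minus strand), has 35 CpG and 75.2% GC and holds none of the 3 motifs. A match is a run of letters and not evidence of binding.

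Rspo1 was low in most nulliparous glands and stood on a plateau from P7 on. In KO glands it averaged 7.76 ± 1.21 at P0, 8.96 ± 1.53 on day 3, 10.70 ± 0.18 on day 7, 10.29 ± 0.23 on day 10 and 10.74 ± 0.07 at P15 (log2 intensity, SD). In WT glands it averaged 7.02 ± 0.91, 9.31 ± 0.90, 10.61 ± 0.23, 10.55 ± 0.38 and 10.81 ± 0.04 over the same stages. The spread between arrays was widest at P0 and P3.

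At P0 the 4 KO arrays read 7.38, 7.15, 6.97 and 9.55 for Rspo1, and the 4 WT arrays 6.48, 8.30, 6.26 and 7.03. At P3 the values were 10.16, 9.49 and 7.24 in KO glands and 9.11, 8.53 and 10.30 in WT glands. One nulliparous KO gland was thus already at the level of P3 glands, and one P3 KO gland was still at the level of P0 glands, while all 3 WT P3 arrays lay above all 4 WT P0 arrays. From P7 on, all KO arrays lay between 10.09 and 10.93 and all WT arrays between 10.12 and 10.87, so that no array of pregnancy day 7 or later overlapped any P0 array of either genotype.

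Against P0, Rspo1 was higher by 2.94 ± 0.46 (SE) at P7 in KO glands (7.65-fold, adjusted p = 4.56e-05) and by 3.59 ± 0.48 in WT glands (12.1-fold, adjusted p = 4.76e-06). At P15 the rise was 2.97 ± 0.48 in KO glands (7.86-fold, adjusted p = 8.11e-06) and 3.79 ± 0.48 in WT glands (13.9-fold, adjusted p = 1.43e-07). At P3 the difference was 1.20 ± 0.52 in KO glands (adjusted p = 0.105), and it was called without KO P3 replicate 3 (2.06, adjusted p = 0.00548), without KO P0 replicate 4 (1.80, adjusted p = 0.00709), with array weights (1.68, adjusted p = 0.00232) and with a pan-epithelial marker covariate (1.58, adjusted p = 0.0105). In WT glands the rise was 2.29 ± 0.52 (adjusted p = 0.00266), which was lost without WT P3 replicate 3 (adjusted p = 0.0516). The change at P3 differed between genotypes by -1.09 (95% interval -2.59 to 0.40, adjusted p = 0.425), so a genotype difference in the early rise was not detectable at this spread. Leaving out 1 array moved that value between -1.69 (without KO P3 replicate 1) and -0.23 (without KO P3 replicate 3). At P15 itself KO minus WT was -0.08 (interval -1.06 to 0.90). Neighbouring stages in the order of Rspo1 levels, P15, P7, P10, P3 and P0 in each genotype, did not pass the test except P3 over P0 in WT glands.

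Lgr4, an R-spondin receptor of epithelial cells, was highest at P15. Its 4 P15 arrays read 11.34, 11.34, 11.22 and 11.44 in KO glands and 10.80, 11.52, 10.94 and 11.39 in WT glands. The highest Lgr4 value at any earlier stage was 10.03 in KO glands and 10.09 in WT glands, both at P10, so P15 stood apart from all other stages. Against P0 the P15 rise was 1.88 ± 0.16 in KO glands (3.68-fold, adjusted p = 1.22e-10) and 1.97 ± 0.16 in WT glands (3.91-fold, adjusted p = 4.04e-11). Most of the rise came between P10 and P15, where Lgr4 rose by 1.77 ± 0.17 in KO glands (adjusted p = 1.17e-08; 32.1% of all genes passed) and by 1.36 ± 0.17 in WT glands (adjusted p = 4.46e-07; 39.6% of all genes).

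Before that step Lgr4 was lowest at P3 and had risen by P7, by 0.71 ± 0.16 in KO glands (adjusted p = 0.0033) and by 0.80 ± 0.17 in WT glands (adjusted p = 0.00296). In KO glands it averaged 9.46 ± 0.13 at P0, 9.01 ± 0.26 at P3, 9.72 ± 0.09 at P7 and 9.57 ± 0.46 at P10. In WT glands the same stages averaged 9.19 ± 0.23, 9.01 ± 0.17, 9.81 ± 0.11 and 9.80 ± 0.28. In WT glands the P7 and P10 levels had risen above P0 (by 0.62 ± 0.16 and 0.61 ± 0.17, adjusted p = 0.00459 and 0.0126), the P10 call being lost without WT P10 replicate 3 (adjusted p = 0.0891). In KO glands these differences were 0.26 and 0.11 (adjusted p = 0.269 and 0.652), and the P3 difference of -0.45 missed the threshold (adjusted p = 0.0626), though it was called after the 7 doubtful arrays were dropped (-0.58, adjusted p = 0.0273). At P15 KO minus WT was 0.17 (95% interval -0.15 to 0.50), and the genotype difference of Lgr4 did not vary detectably between stages (F test, adjusted p = 0.382). The white adipocyte score (7 of 7 genes) averaged 0.25 at P0 and -0.55 at P15 in KO glands, and 0.38 and -0.85 in WT glands. Over the 37 arrays Lgr4 correlated with that score at r = -0.81, with the luminal progenitor score at 0.78 and with the myoepithelial score at 0.74, and Rspo1 at -0.51, 0.58 and 0.57, as a description of arrays that share their tissue and stages. The part of these scores in the rises was not tested.

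Lgr5, the R-spondin receptor used as a stem cell marker in several epithelia, behaved unlike Lgr4 and varied widely within groups. The KO arrays read 6.17, 8.80, 8.32 and 7.39 at P0, and 5.58, 5.66 and 5.56 at P10. The WT arrays read 6.27, 6.60, 7.09 and 6.97 at P0, and 5.28, 5.82 and 5.93 at P10. All P10 arrays of each genotype lay below all P0 arrays of that genotype, and the 3 KO P10 arrays lay close together. Lgr5 fell in KO glands at P10 (-2.07 ± 0.56, 4.20-fold, adjusted p = 0.00508) and at P15 (-1.51 ± 0.51, adjusted p = 0.0185). In WT glands the P10 difference was -1.06 ± 0.56 (adjusted p = 0.163) and the P15 difference -0.27 ± 0.51 (adjusted p = 0.693). The changes at P10 were not shown to differ between genotypes (KO minus WT of the change -1.01, 95% interval -2.61 to 0.60, adjusted p = 0.431). The P10 fall in KO glands was -2.10 without the arrays in doubt, where 1 array was left (adjusted p = 0.189), and the P15 fall lost its call when any of 4 single KO arrays was left out, among them P0 replicates 2 and 3.

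**Figure D2:**
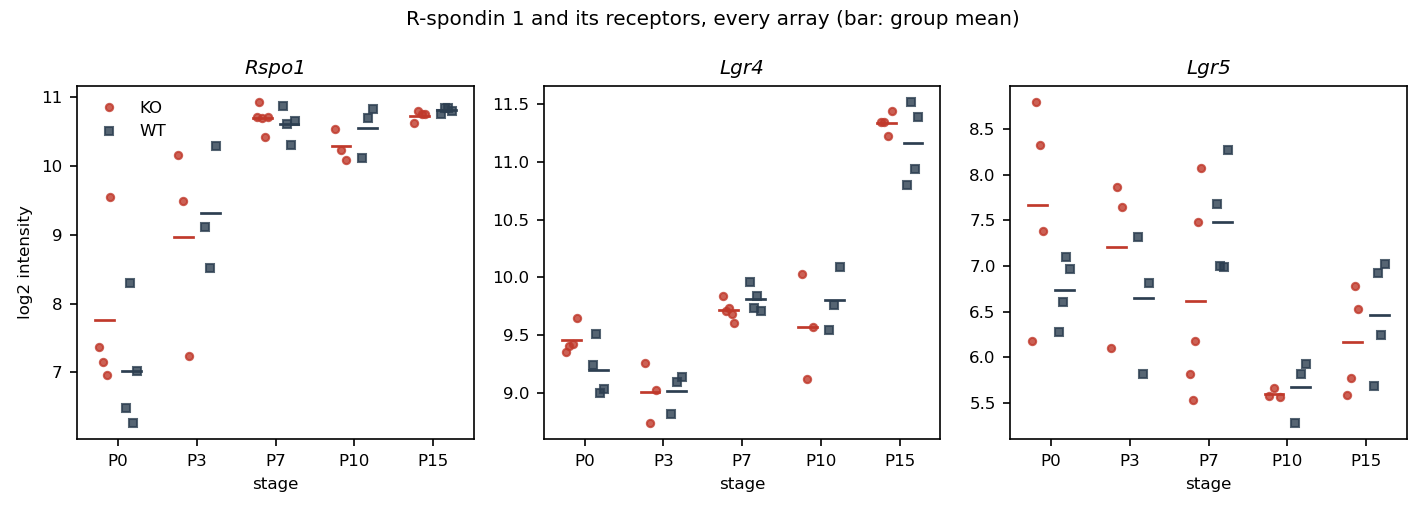
Log2 intensity (vertical axis) of Rspo1, Lgr4 and Lgr5 on every array by stage, KO as red circles left of WT as dark squares, with a bar at each group mean. Rspo1 sits at 10.09 or above in all arrays from P7 on, Lgr4 is at 10.80 or above in all P15 arrays, and Lgr5 scatters over more than 2 log2 units in KO P0 and KO P7 glands.

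Wnt2, a ligand that signals through beta-catenin, showed a genotype difference that changed sign between the nulliparous and the pregnant gland. At P0 the KO arrays read 8.27, 8.01, 8.18 and 8.79, against 7.82, 6.98, 7.63 and 7.74 in WT glands. At P3 the KO arrays read 7.73, 8.35 and 7.68, against 8.42, 8.96 and 8.66 in WT glands. All KO values lay above all WT values at P0 and below all WT values at P3. By P15 the KO arrays read 6.12, 6.09, 6.04 and 5.94, against 6.63, 6.92, 6.81 and 6.82 in WT glands, again without overlap.

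KO minus WT of Wnt2 was 0.77 ± 0.21 at P0 (adjusted p = 0.0464) and -0.75 ± 0.21 at P15 (adjusted p = 0.0157). In between it was -0.76 ± 0.24 at P3 (adjusted p = 0.352), -0.19 at P7 (not separated, adjusted p = 1) and -0.47 ± 0.24 at P10 (adjusted p = 0.173, groups without overlap). The P0 call depended on single arrays: its adjusted p ran from 0.0291 to 0.132 over the fits that left out 1 array each, and 22 of those 37 fits lost it, with the difference between 0.58 and 0.87. Without the array labelled KO P15 replicate 3 the P0 difference was 0.77 (adjusted p = 0.0514). The P15 call held in all 37 such fits and was -0.75 without the array labelled KO P15 replicate 3 (adjusted p = 0.0309).

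The course of Wnt2 over the stages differed between genotypes. In KO glands it was already highest at P0 (8.31 ± 0.34) and fell below it at P7 (level 7.31 ± 0.48, adjusted p = 0.00061), at P10 (level 7.33 ± 0.21, adjusted p = 0.00111) and at P15 (a difference of -2.26 ± 0.21, 4.81-fold, adjusted p = 4.52e-10). In WT glands it rose at P3 by 1.14 ± 0.22 (adjusted p = 0.000832), stood at 7.50 ± 0.24 at P7 and 7.80 ± 0.09 at P10, and was lower at P15 (-0.75 ± 0.21, adjusted p = 0.00326), a call lost with the pan-epithelial score (the mean of 13 epithelial marker genes) as a covariate (-0.51, adjusted p = 0.0955). The P10 fall in KO glands was not called without the arrays in doubt (-1.14, adjusted p = 0.0599). The change against P0 was more negative in KO glands, with KO minus WT of the change at -1.53 ± 0.31 at P3 (adjusted p = 0.00681; 1.97% of all genes passed this test), -1.24 ± 0.31 at P10 (adjusted p = 0.0115; 10.6% of all genes) and -1.52 ± 0.29 at P15 (adjusted p = 0.00186; 10.1% of all genes). These 3 differences share the P0 arrays, in which Wnt2 was higher in KO glands, and the P10 difference was not called without the arrays in doubt (-1.46, adjusted p = 0.339). At P7 the difference was -0.96 ± 0.28 (adjusted p = 0.122; 0.32% of all genes passed). Of the 10 genes, Wnt2 and Wnt5a were called by the F test that the genotype difference varies between stages (adjusted p = 0.00332 and 0.0134), where 18% of all genes were.

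Wnt5a, a ligand that mostly acts without beta-catenin and restrains ductal branching in mice, fell over pregnancy in each genotype. In KO glands it averaged 9.39 ± 0.52 at P0, 8.39 ± 0.04 on day 3, 7.93 ± 0.28 on day 7, 6.87 ± 0.61 on day 10 and 7.50 ± 0.16 at P15. In WT glands it averaged 9.03 ± 0.35, 8.48 ± 0.28, 8.11 ± 0.08, 8.10 ± 0.24 and 7.60 ± 0.22. At P15 no array of either genotype reached the lowest P0 array of its genotype, and the change was -1.89 ± 0.21 in KO glands (3.70-fold, adjusted p = 2.86e-08) and -1.44 ± 0.21 in WT glands (2.70-fold, adjusted p = 2.26e-06). At P3 the fall was called in KO glands (-1.01 ± 0.23, adjusted p = 0.00317), while the WT difference was -0.55 ± 0.23 (adjusted p = 0.0954). The KO call was lost with the 2 groups alone (adjusted p = 0.0611), and the WT fall was called with the lymphocyte and muscle covariates (adjusted p = 0.0427). A genotype difference in the P3 change of Wnt5a was not called.

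At P10 Wnt5a was lower in KO glands, with 7.56, 6.46 and 6.58 against 8.33, 7.85 and 8.13 in WT glands (-1.24 ± 0.25, adjusted p = 0.00107). The 2 lowest of these arrays are KO P10 replicates 2 and 3, the lymphocyte-rich ones, and the third KO array also lay below the lowest WT array. The B and T lymphocyte score (10 of 12 listed genes measured) spanned 0.01 to 4.14 in KO P10 glands, against -0.30 to -0.22 in WT P10 glands. The pan-epithelial score (13 of 13 genes) spanned -0.64 to -0.32 in KO P10 glands, against -0.57 to 0.18 in WT P10 glands. Other scores did not overlap there: hormone-sensing luminal markers (6 of 8 genes) spanned -0.98 to -0.59 in KO and -0.23 to -0.14 in WT P10 glands, endothelial markers (5 of 5) -0.50 to 0.15 in KO and 0.40 to 0.42 in WT P10 glands, and fibroblast and matrix markers (9 of 9) -0.18 to 0.05 in KO and 0.20 to 0.23 in WT P10 glands. Over the 37 arrays Wnt5a correlated with the hormone-sensing score at r = 0.82, as a description. The part of the hormone-sensing, endothelial and fibroblast scores in the difference was not tested. Leaving out the arrays in doubt gave a Wnt5a difference of -0.54 (adjusted p = 1, 1 KO array left), and with the lymphocyte and muscle scores as covariates it was -0.56 (adjusted p = 0.947). The change from P0 to P10, more negative in KO glands (-1.60 ± 0.33, adjusted p = 0.00378), was likewise lost (-0.82, adjusted p = 0.702), as was the call of the F test without KO P10 replicate 2 or 3.

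Wnt4 held its level to P7 and was lower from P10. In KO glands it averaged 8.50 ± 0.39 at P0, 8.69 ± 0.09 on day 3, 8.50 ± 0.14 on day 7, 7.92 ± 0.14 on day 10 and 7.98 ± 0.15 at P15. In WT glands it averaged 8.56 ± 0.21, 8.46 ± 0.31, 8.64 ± 0.08, 7.98 ± 0.09 and 7.98 ± 0.17. The P15 change was -0.51 ± 0.14 in KO glands (adjusted p = 0.00361) and -0.59 ± 0.14 in WT glands (adjusted p = 0.000894), and the P10 change -0.57 ± 0.15 in KO glands (adjusted p = 0.00444) and -0.58 ± 0.15 in WT glands (adjusted p = 0.00788). With the 2 groups alone neither P10 call held (adjusted p = 0.102 in KO and 0.0549 in WT glands), and the KO one also ended with the pan-epithelial covariate (-0.40, adjusted p = 0.0641), the lymphocyte and muscle covariates (-0.51, adjusted p = 0.206) and the 7 doubtful arrays left out (-0.44, adjusted p = 0.356). One KO P0 array, at 7.97, was as low as the P10 and P15 arrays, and the other P0 arrays of both genotypes lay at 8.32 or above. Markers of hormone-sensing luminal cells (6 of 8 measured, Esr1, Pgr, Foxa1, Cited1, Tnfsf11 and Prom1) averaged 0.78 at P0, -0.82 at P10 and -0.89 at P15 in KO glands and 0.56, -0.20 and -0.92 in WT glands, on a log2 scale centred on all arrays. The part of this marker shift in the fall of Wnt4 was not tested.

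Wnt5b, a relative of Wnt5a, went the other way. It rose by 0.56 at P7 (adjusted p = 0.00429) and by 0.75 ± 0.14 at P15 (adjusted p = 8.07e-05) in KO glands, and by 0.55 ± 0.14 (adjusted p = 0.0049) and 0.77 ± 0.14 (adjusted p = 5.06e-05) in WT glands. The P15 arrays read 8.42, 8.29, 8.23 and 8.36 in KO glands and 8.41, 8.31, 8.41 and 8.23 in WT glands, all above every P0 array, the highest of which was 8.06. In WT glands the P7 rise was not called when the 7 doubtful arrays were dropped (0.43, adjusted p = 0.0841) or with the 2 groups alone (0.55, adjusted p = 0.0558), and with the pan-epithelial score as a covariate the rises there were 0.34 at P7 (adjusted p = 0.00708) and 0.34 at P15 (adjusted p = 0.00869). At P10 Wnt5b stood at 7.57 ± 0.18 in KO glands, lower than at P7 (-0.58, adjusted p = 0.00451), and at 7.84 ± 0.32 in WT glands, where the difference from P7 was -0.29 (adjusted p = 0.473). P15 was higher than P10 by 0.76 in KO glands (adjusted p = 0.000281) and by 0.50 in WT glands (adjusted p = 0.0102), and with the pan-epithelial covariate neither was called (0.20 and adjusted p = 0.207 in KO glands, 0.20 and adjusted p = 0.117 in WT glands). Median centring also ended the WT call (0.30, adjusted p = 0.103), and leaving out the arrays in doubt ended both KO calls, P10 against P7 (-0.44, adjusted p = 0.424) and P15 against P10 (0.64, adjusted p = 0.0817). The KO call of P10 against P7 was also lost with the pan-epithelial covariate (-0.16, adjusted p = 0.248), with the lymphocyte and muscle covariates (-0.50, adjusted p = 0.313) and without KO P10 replicate 3 (-0.47, adjusted p = 0.0561). Over the 37 arrays Wnt5b ran with the pan-epithelial, luminal progenitor and myoepithelial scores (r = 0.78 each), given as a description of arrays that share their tissue and stages.

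Wnt7b, a ligand of luminal epithelium, was lower from P7 on by small amounts. The change at P15 was -0.42 in KO glands (adjusted p = 0.000679) and -0.46 in WT glands (adjusted p = 0.000179), and at P10 -0.47 in KO glands (adjusted p = 0.000898) and -0.56 in WT glands (adjusted p = 0.000572). The KO P10 call of Wnt7b ended without the arrays in doubt, at a difference of -0.44 (adjusted p = 0.160), and with the lymphocyte and muscle covariates, at -0.47 (adjusted p = 0.0863). All 4 P15 arrays in KO glands, 6.36 to 6.58, lay below all 4 P0 arrays, 6.65 to 7.01, and in WT glands the ranges were 6.40 to 6.58 at P15 and 6.88 to 7.01 at P0. Wnt6 was dim and stayed between 5.77 and 6.53 on all 37 arrays, beside array medians of 6.52 to 6.79. It was lower at P10 in KO glands (-0.28 ± 0.10, adjusted p = 0.0373), a call lost when the arrays in doubt were left out (-0.16, adjusted p = 0.673). No stage differed from P0 in WT glands, where the F test gave an adjusted p of 0.392.

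**Figure D3:**
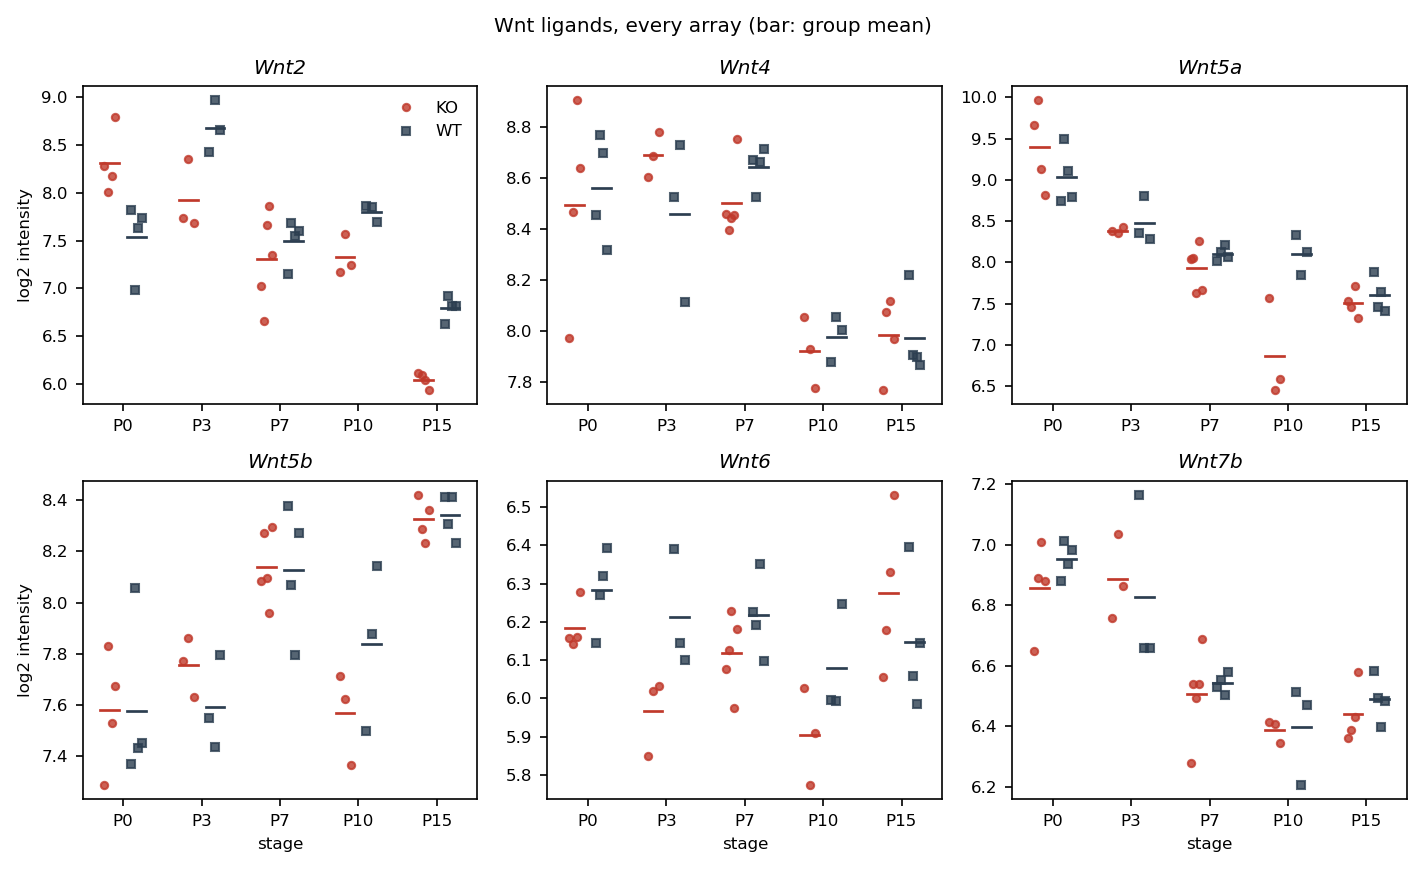
Log2 intensity (vertical axis) of the 6 Wnt ligands on every array by stage, KO as red circles left of WT as dark squares, with a bar at each group mean and a scale of its own for each gene. Wnt2 in KO glands lies above WT at P0 and below it at P3, P10 and P15, Wnt5a and Wnt7b fall, Wnt5b rises, and Wnt6 spans 5.77 to 6.53.

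Sfrp4, which binds Wnt proteins and keeps them from their receptors, was the gene of the 10 with the lowest P15 level relative to P0 in KO glands. At P15 the KO arrays read 4.94, 5.52, 5.81 and 5.31, against 7.35, 7.38, 7.81 and 7.32 in WT glands. All 4 KO arrays lay below every other array of the series, the lowest of which was 5.95. KO minus WT at P15 was -2.07 ± 0.51 (4.20-fold lower, adjusted p = 0.00738), and it was -2.21 without the array labelled KO P15 replicate 3 (adjusted p = 0.00974).

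Before P15, Sfrp4 showed no genotype difference past the threshold and wide spread. The KO arrays read 6.29, 8.92 and 8.23 at P3 and 6.90, 5.95, 8.78, 8.75 and 8.34 at P7. The WT arrays read 7.79, 8.38 and 7.74 at P3 and 8.24, 8.61, 8.94 and 8.62 at P7. One KO P3 array and a pair of KO P7 arrays were far below the rest, and the P3 one is the muscle-rich replicate 1. The other muscle-rich arrays, WT P0 replicate 4 and KO P7 replicate 3, read 9.33 and 8.78. The fibroblast and matrix score was -0.76 in KO P3 replicate 1, against 0.10 and -0.11 in the other KO P3 arrays. In KO P7 replicates 1 and 2, the low pair, it was -0.05 and -0.03, against 0.30 to 0.48 in the other KO P7 arrays. The part of this score was not tested. Against P0, Sfrp4 fell at P15, with -3.45 ± 0.51 in KO glands (10.9-fold, adjusted p = 2.29e-06) and -1.34 ± 0.51 in WT glands (2.52-fold, adjusted p = 0.0308), the WT call being lost in 6 of the 37 fits that left out 1 array, with the 7 doubtful arrays left out (-1.16, adjusted p = 0.0534) and with the pan-epithelial score as a covariate (-0.78, adjusted p = 0.333). The change itself differed by -2.11 ± 0.72 between KO and WT glands (adjusted p = 0.0587), which missed the threshold. It was called once the 7 doubtful arrays were dropped (-2.42, adjusted p = 0.0287), with the pan-epithelial covariate (-2.50, adjusted p = 0.0275) and with array weights (-2.01, adjusted p = 0.0312).

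Fibroblast and matrix markers moved with Sfrp4 and Wnt2 at P15. Their score over 9 of 9 genes (Pdgfra, Dcn, Lum, Col1a1, Col1a2, Col3a1, Dpt, Mfap5 and Pi16) ran from -0.95 to -0.60 in KO P15 glands, against -0.30 to -0.08 in WT P15 glands, without overlap. The white adipocyte score averaged -0.55 in KO and -0.85 in WT P15 glands, and the pan-epithelial score 0.35 in KO and 0.33 in WT P15 glands. With the pan-epithelial score as a covariate the P15 differences were -2.05 for Sfrp4 (adjusted p = 0.00525) and -0.74 for Wnt2 (adjusted p = 0.0112). Over the 37 arrays Sfrp4 correlated with the fibroblast score at r = 0.85 and Wnt2 at r = 0.66, as a description. At P0, P3, P7 and P10 KO minus WT of the score was 0.23, -0.35, -0.14 and -0.28, with overlap except at P10. The Wnt2 difference had the sign of the score at each stage. Sfrp4 shared that sign at P0, P3 and P7 but not at P10, where it differed by 0.70 without passing the test. The part of the fibroblast score in these differences was not tested.

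At P0, where Wnt2 was higher in KO glands, the pan-epithelial score spanned -0.29 to 0.43 in KO glands and -0.82 to 0.45 in WT glands. With that score as a covariate the P0 difference of Wnt2 was 0.94 (adjusted p = 0.0438). The skeletal muscle score (7 of 7 genes) spanned -0.42 to -0.15 in KO P0 glands, against -0.26 to 5.20 in WT P0 glands, where replicate 4 is the muscle-rich one. The fibroblast and matrix score spanned -0.04 to 0.53 in KO and -0.20 to 0.29 in WT P0 glands, and its part was not tested. The Wnt2 call was lost once lymphocyte and muscle scores entered the fit (a difference of 0.81 at adjusted p = 0.0529) and when the 7 doubtful arrays were dropped (0.84, adjusted p = 0.0839).

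Axin2, a feedback inhibitor and standard target of beta-catenin signalling, is not among the 10 and was followed as a readout. At P3 its arrays read 7.92, 8.03 and 7.87 in KO glands and 8.56, 8.45 and 8.56 in WT glands. At every other stage the KO arrays lay between 7.03 and 7.82 and the WT arrays between 7.17 and 7.80, so that P3 was the peak in each genotype. Axin2 rose at P3 against P0 by 0.39 ± 0.13 in KO glands (adjusted p = 0.0287) and by 0.95 ± 0.13 in WT glands (adjusted p = 1.81e-05), and in WT glands it was back near its P0 level at P7, at 7.58 to 7.75. KO minus WT at P3 was -0.58 ± 0.14 without overlap, but it missed the threshold (adjusted p = 0.0966), as did the difference of the P3 change (-0.55, adjusted p = 0.0971). Without the array labelled KO P15 replicate 3 both passed, at -0.58 (adjusted p = 0.0276) and -0.55 (adjusted p = 0.0458). That array is in no P3 or P0 group, so the means compared were unchanged. The P3 difference also passed without KO P3 replicate 2. In the settings other than single left-out arrays neither passed, also with the 7 doubtful arrays left out. The mean difference over the stages passed without KO P15 replicate 3, at -0.22 (adjusted p = 0.0101) against -0.19 with it (adjusted p = 0.0577). It also passed without WT P0 replicate 2, KO P10 replicate 1 or WT P15 replicate 2, and with array weights. The F test that the genotype difference varies between stages passed without KO P15 replicate 3 (adjusted p = 0.0234, against 0.0972 with it) and with array weights. The KO rise at P3 was not called with median centring (0.30, adjusted p = 0.0884), quantile normalisation (0.34, adjusted p = 0.0708), the 2 groups alone (0.39, adjusted p = 0.0532) or the lymphocyte and muscle covariates (0.37, adjusted p = 0.0711), nor without KO P0 replicate 3, KO P3 replicate 1 or KO P3 replicate 2.

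**Figure D4:**
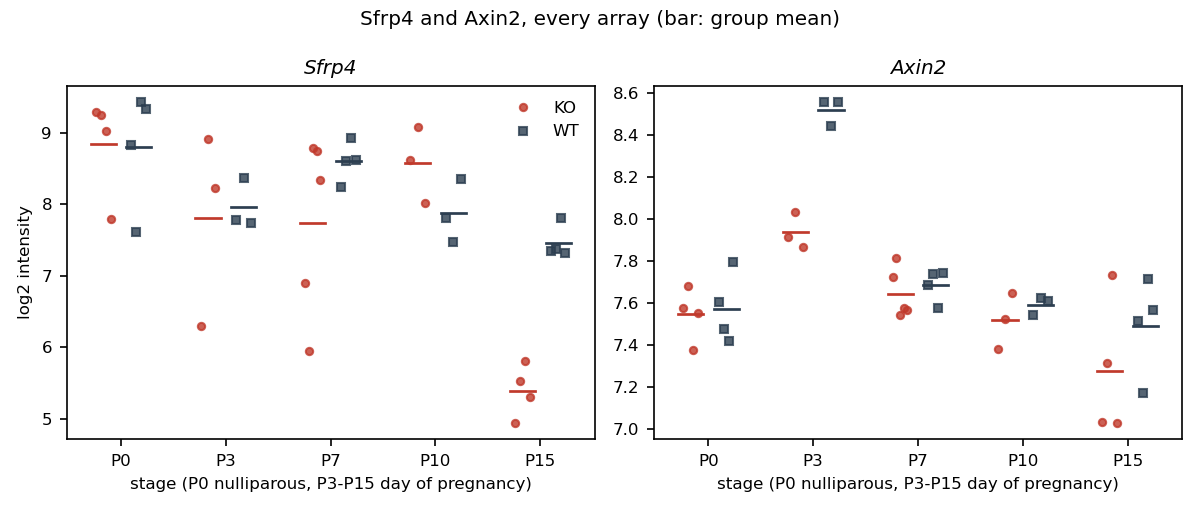
Log2 intensity (vertical axis) of Sfrp4 and Axin2 on every array by stage, KO as red circles left of WT as dark squares, with a bar at each group mean. Sfrp4 at P15 separates into KO arrays from 4.94 to 5.81 and WT arrays from 7.32 to 7.81, and Axin2 peaks at P3, to 8.03 in KO and 8.56 in WT glands.

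Genotype calls among the 10 genes were counted by stage, beside the share of all genes. Counts this small do not show whether the 10 differ from genes at large. In nulliparous glands 1 gene passed, Wnt2, where 1.7% of all genes did. In pregnancy limma called none at P3 (0.119% of all genes) and none at P7 (0.00593% of all genes). Wnt5a passed at P10 (17.2% of all genes), and Sfrp4 and Wnt2 passed at P15 (11.1% of all genes). For the mean over the 5 stages none of the 10 passed in the equal-weight limma fit (2.43% of all genes), and Wnt2 averaged -0.28 ± 0.10 (adjusted p = 0.111). The median KO minus WT difference of the 10 was 0.15 at P0, -0.20 at P10 and -0.06 at P15, beside -0.01, -0.03 and 0.01 over all genes tested.

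**Figure D5:**
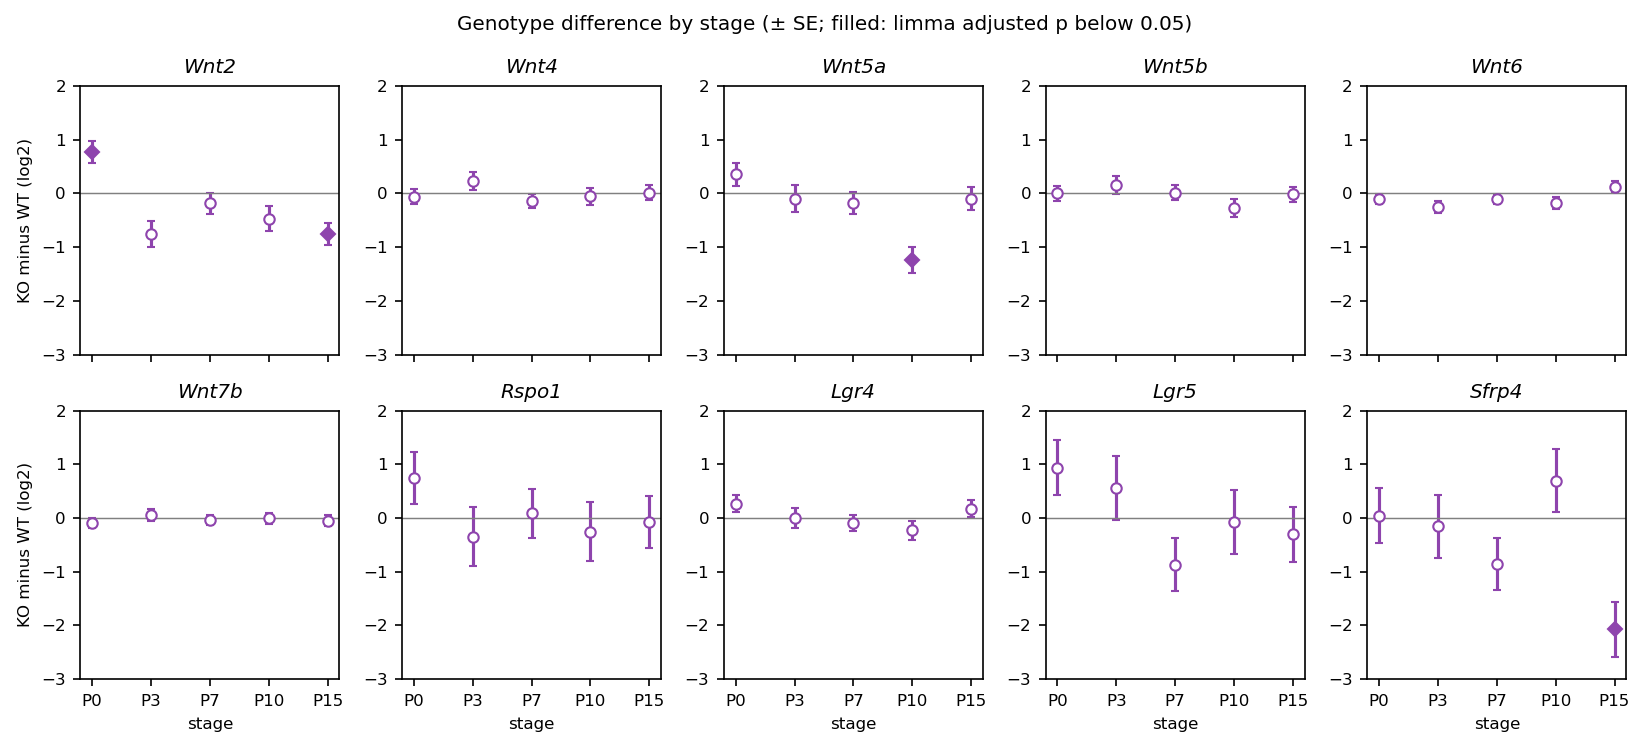
KO minus WT log2 difference (vertical axis) of each of the 10 genes by stage, with bars of 1 SE; filled diamonds have a limma adjusted p below 0.05. The filled points are Wnt2 at P0 (0.77) and P15 (-0.75), Wnt5a at P10 (-1.24) and Sfrp4 at P15 (-2.07).

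Of 83 further genes of the pathway listed by role, 82 were measured and tested. At P15 against P0, 27 passed in KO glands, 10 higher and 17 lower (32.9%, beside 41.3% of all genes), and 40 passed in WT glands, 21 higher and 19 lower (48.8%, the same share as among all genes). Among the genes on which R-spondin acts, Rnf43, the ubiquitin ligase that R-spondins remove, was higher by 1.86 in KO and by 2.27 ± 0.22 in WT glands (adjusted p = 1.33e-09 in WT). Znrf3, the other ligase they remove, was lower by a log2 difference of -0.22 in KO glands (adjusted p = 0.0393) and higher by 0.28 in WT glands (adjusted p = 0.00792). Whether the changes of Znrf3, or of Lgr6 and Ror1 below, differ between genotypes is not reported here. Neither Znrf3 call was firm: the KO one was lost with the replicate block (adjusted p = 0.0519), with the 2 groups alone (adjusted p = 0.0927) and in 5 of the 37 fits that left out 1 array, and the WT one with median centring (0.09, adjusted p = 0.346), the 2 groups alone (adjusted p = 0.0610) and the pan-epithelial covariate (0.25, adjusted p = 0.0603). Lgr6, the remaining LGR receptor of R-spondins, differed by 0.60 in KO glands (adjusted p = 0.0809) and rose by 1.67 ± 0.27 in WT glands. Of 16 Frizzled receptors and co-receptors, 7 fell and none rose in KO glands, and 5 fell and 3 rose in WT glands. Beside these counts and those of the inhibitors, 19.5% of all genes rose and 21.8% fell in KO glands. In WT glands 21.6% of all genes rose and 27.3% fell. Fzd4 fell (-1.09 in KO and -1.28 ± 0.21 in WT glands), and Ror1, a receptor of Wnt5a, differed by 0.31 in KO glands (adjusted p = 0.0663) and rose by 1.18 ± 0.14 in WT glands. Of 16 secreted or membrane-bound inhibitors, 5 fell and none rose in KO glands, and 4 fell and 2 rose in WT glands. Among the falling ones was Apcdd1 (-1.57 in KO and -1.52 ± 0.24 in WT glands).

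Inside the cell, 8 of 22 signalling genes were higher and 1 lower in KO glands at P15, and 10 higher and 2 lower in WT glands. The shares of all genes, for this list and those below, were again 19.5% higher and 21.8% lower in KO glands. In WT glands they were 21.6% and 27.3%. Bcl9, a beta-catenin co-activator, rose by 1.09 in KO and 1.32 ± 0.11 in WT glands, and Tcf7l2, a DNA-binding partner of beta-catenin, by 1.05 in KO and 1.27 ± 0.13 in WT glands. Of the other 13 Wnt ligands, 1 fell in KO glands and 5 in WT glands, none rose, and the largest of the WT falls was Wnt10a at -0.41 ± 0.11. Signals were low for part of this list. In WT P0 glands Wnt10a averaged 7.36, Wnt11 6.83, Wnt1 5.69 and Wnt8b 4.91, beside array medians of 6.52 to 6.79. Of 13 measured target genes, 2 rose and 4 fell in KO glands, and 4 rose and 4 fell in WT glands, with Myc up by 1.25 ± 0.20 in WT glands. The lists overlap: Rnf43 and Apcdd1 are among these target genes and also belong to lists above. In KO glands the Myc difference was 0.49 (adjusted p = 0.0493), a call lost in 27 of the 37 fits that left out 1 array (0.32 to 0.61, adjusted p up to 0.233) and in 5 of the 11 other settings.

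Genotype differences in these lists were most frequent at P10, where 21 of 82 passed (25.6%, beside 17.2% of all genes, for which P10 also had the most calls), 19 of them lower in KO glands, including 11 of 16 Frizzled receptors and co-receptors; that stage holds the lymphocyte-rich arrays, and their part was not tested for these lists. Averaged over stages 2 passed (2.44%, beside 2.43% of all genes), both lower in KO glands: Fzd2 (-0.25 ± 0.06, adjusted p = 0.0290) and the co-receptor Lrp6 (-0.18 ± 0.04, adjusted p = 0.0120). Leaving out the arrays in doubt ended both calls, with differences of -0.20 for Fzd2 (adjusted p = 0.308) and -0.15 for Lrp6 (adjusted p = 0.130).

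Among the 10 genes themselves, the closest pair over the 37 arrays was Wnt5b with Lgr4 (r = 0.73), and the most opposed was Wnt2 with Lgr4 (r = -0.80), given as descriptions over arrays that share their stage. The genes whose 10 group means ran most like those of each member, with predicted genes left out, were Glis2 for Wnt2 (r = 0.986), Fut9 for Wnt4 (0.952), Ntn1 for Wnt5a (0.980), Dlg1 for Wnt5b (0.977) and Dppa3 for Wnt6 (0.916). For the others they were Dok5 for Wnt7b (r = 0.989), Cep162 for Rspo1 (0.975), Hivep3 for Lgr4 (0.989), Sh3rf2 for Lgr5 (0.927) and Abi3bp, an extracellular matrix protein, for Sfrp4 (0.977). The next closest to Lgr4 were Sowahb (0.988) and Abcg2, a transporter of the lactating gland (0.987), and the next closest to Sfrp4 were Lrrn4cl (0.967) and Flrt2 (0.965). These values are the top ranks of a search through all candidate genes over 10 points and carry no test.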

How the data were processed

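The deposited table holds 1 log2 intensity per probe set and array of an Affymetrix whole-transcript array; it was made by the authors with the affy package, per the submitters' processing notes, while no source used here gives the other steps or any version. Array medians lie between 6.52 and 6.79. Probe sets were named from the platform annotation, 21640 of 34760 with 1 symbol, 1321 with several and 11799 with none; the set with the highest mean over all arrays stands for a gene. Genes above 4.96 (the table's 25th percentile) on at least 3 arrays were tested, 16865 of 19937. The number of arrays limits the precision.

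A mean per group was fitted to all 37 arrays with limma 3.58.1 in R 4.3.3 (lmFit and eBayes, two-sided), so all groups share 1 estimate of the spread, and p-values were adjusted by Benjamini-Hochberg over all genes tested, with a threshold of 0.05. The procedure was tested on simulated data. Intervals are at 95%. A marker score is the mean over a list's measured genes of log2 values centred on each gene. Closest genes were the 3 with the highest Pearson correlation over the 10 group means, predicted genes left out. Other pathway genes are named by rule, up to 3 called genes per list with the largest change at P15 in WT or in the mean genotype difference, plus Axin2. The members and lists were chosen with earlier results of these data known. No 2 arrays held the same values. Same-numbered KO and WT arrays of a stage correlated above 0.1 in 9 of 18 pairs, so numbers were not taken as pairs. Promoter sequences are from RefSeq. Alternatives tried were no filter, quantile normalisation, centring on the array median, a trended robust prior, array weights, the replicate number as a block, the compared groups alone, the mean of probe sets, the pan-epithelial score as a covariate and leaving out each array; leaving out the 7 arrays in doubt and using the lymphocyte and muscle scores as covariates were chosen after seeing the data.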

Additional observations from a re-analysis of the deposited data

Results flagged for a closer look

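In groups of 4 or 5 arrays, 6 of the 60 combinations of gene and group held 1 array far from the others by Dixon's criterion, which flags about 1 in 20 groups by chance. Rspo1 read 9.55 in KO P0 replicate 4, where the other 3 arrays read 6.97 to 7.38. Sfrp4 read 7.81 in WT P15 replicate 3, where the other 3 read 7.32 to 7.38. Wnt4 read 8.75 in KO P7 replicate 5, where the other 4 read 8.40 to 8.46, and 8.22 in WT P15 replicate 1, where the other 3 read 7.87 to 7.91. Wnt5b read 8.06 in WT P0 replicate 2, where the other 3 read 7.37 to 7.45, and Wnt6 read 6.28 in KO P0 replicate 4, where the other 3 read 6.14 to 6.16.

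The change against P0 differed between KO and WT glands, by a test of the difference itself, for Wnt2 at P3 (-1.53), P10 (-1.24) and P15 (-1.52) and for Wnt5a at P10 (-1.60). The F test that the genotype difference varies between stages gave an adjusted p of 0.00332 for Wnt2 and 0.0134 for Wnt5a.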

How the results depend on the processing

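Of 192 named differences and tests, each recomputed under the alternatives, 8861 of 9169 values kept their direction and their side of the threshold, 238 lost a call, 67 gained one and 3 changed sign. The sign changes were Wnt5a at P15 against P10 in KO glands, -0.13 without the arrays in doubt and -0.024 with the lymphocyte and muscle scores as covariates, and Rspo1 in KO minus WT at P15, 0.012 after median centring. The count of the 10 genes called in KO minus WT at P0 was 0 instead of 1 with no filter, quantile normalisation, array weights, the 2 groups alone, without the arrays in doubt and with the lymphocyte and muscle covariates. At P10 it was 3 instead of 1 with array weights, and 0 with the 2 groups alone, without the arrays in doubt and with those covariates. The mean over stages gave 2 instead of 0 with array weights, and the F test of a varying difference 5 instead of 2 with array weights and 1 without the arrays in doubt or with the covariates. Against P0 in KO glands, the P3 count was 2 instead of 1 with quantile normalisation and without the arrays in doubt, 3 with median centring, array weights and the pan-epithelial covariate, and 0 with the 2 groups alone. The P10 count in KO glands was 4 instead of 7 with the 2 groups alone, 1 without the arrays in doubt and 2 with the covariates. In WT glands the P3 count was 1 instead of 2 and the P10 count 2 instead of 5 with the 2 groups alone, and the P10 count 8 with array weights. Leaving out each array gave 0 to 1 genes for KO minus WT at P0, 0 to 0 at P3 and P7, 1 to 1 at P10, 2 to 2 at P15, 0 to 1 for the mean and 1 to 3 for the varying difference. In KO glands it gave 1 to 2 at P3, 5 to 6 at P7, 6 to 7 at P10, 8 to 9 at P15 and 10 to 10 for any change, and in WT glands 1 to 3, 5 to 5, 4 to 6, 7 to 8 and 7 to 8. With the replicate number as a block, 188 of 192 kept their call, 3 lost it and 1 gained it, Wnt6 at P10 in KO glands among the lost ones (-0.27, adjusted p = 0.0613). Groups of 3 to 5 arrays limit what can be called for genes of wide spread such as Rspo1, Lgr5 and Sfrp4. Wherever a call changed, the cause was not tested, except that the 2 groups alone and the fits without arrays hold fewer arrays.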
